A study of Mus musculus with 16 samples.

Results

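The genes described here are 31 that oligodendrocytes use to build and keep myelin, taken from a table of 54532 gene entries in 16 RNA sequencing libraries of mouse brain. They were chosen by name as a module of myelin and mature oligodendrocyte genes by a rule that used no measured value, though with earlier results of these data known. The libraries form 4 groups of 4, all from female mice 9 months of age, that combine Ch25h genotype with tau status. Animals with Ch25h formed the groups Ch25h+/+ Tau- and Ch25h+/+ Tau+, and animals without it the groups Ch25h-/- Tau- and Ch25h-/- Tau+. Ch25h codes for cholesterol hydroxylase, which turns cholesterol into an oxysterol. Tau+ is read as carrying a tau transgene, whose allele and promoter the labels do not name, so the cells that express it cannot be stated here. On the tissue the sources differ: the sample labels give frontal cortex, while the series' design text gives hippocampus. Each library has a title of its own, but the labels do not say that each came from a separate animal, and p-values measure the spread between these libraries.

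Oligodendrocytes wrap axons of the brain in myelin, a stack of compacted membrane rich in cholesterol and galactolipids that speeds the nerve impulse. The stack is held together by a few abundant proteins, is fed by lipid enzymes of the same cell, and is switched on by transcription factors that act in order from precursor to mature cell. Mature oligodendrocytes can also take on a state with complement and antigen-presentation genes, known from diseased brain. In bulk tissue, fewer cells of a type and less RNA per cell cannot be told apart.

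All 31 genes were detected in each of the 16 libraries, at 15530352 to 25602500 counts per library, and all passed the filter on low counts that left 17736 genes. Of the 31, the 6 that define oligodendrocytes (Mbp, Mog, Mag, Mobp, Cnp and Opalin) had a summed level of 1427 to 3535 CPM (counts scaled to a fixed library total) over the libraries, which does not tell the 2 named tissues apart. Ch25h had 0 counts in all 8 Ch25h-/- libraries, and in Ch25h+/+ it had 5 to 10 counts without tau and 11 to 30 counts with tau. Libraries also differed in CT010467.1, which the GENCODE annotation types as a ribosomal RNA gene. It stood at 110.8 to 474.6 CPM on total counts in the 8 Ch25h+/+ libraries and in Ch25h-/- Tau+ replicate 1, and at 2289 to 5684 CPM in the other 7 Ch25h-/- libraries, called rRNA-rich here. No Ch25h+/+ library was rRNA-rich, so this class and Ch25h loss cannot be told apart for those 7 libraries. Both classes occur only in Ch25h-/- Tau+. A fit with the class as a covariate therefore takes the class effect from that group's replicate 1 against its other libraries.

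Per kilobase of merged exons, the mean level over the 16 libraries was highest for Mbp, at 166 CPM per kb, and lowest for the transcription factor Nkx2-2, at 1.35 CPM per kb. Mbp encodes myelin basic protein, which holds the inner faces of the membrane stack together. Next in order came Enpp2 at 86.9, Cnp at 69.7, Car2 at 63.9 and Mobp at 61.2 CPM per kb. Cnp encodes a cyclic nucleotide phosphodiesterase that keeps channels open in the sheath, and Mobp a small basic protein of compact myelin. From Cnp down to Olig1, at 60.5 CPM per kb, the means lie close together and the library ranges overlap. Trf at 3.26 and Aspa at 2.29 CPM per kb stood just above Nkx2-2. Within groups the spread of log2 CPM was tightest for Sirt2, with a pooled SD of 0.087, and for Car2, at 0.12. It was widest for Enpp2 at 1.16 and Trf at 0.40.

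RefSeq promoter windows, running from 250 bases before to 50 bases after a start site in the build GRCm38.p6, were matched by symbol for 23 of the 31 genes, in 33 windows. The stretches before the start site are shown for 6 genes: Aspa, Cldn11 and Nkx6-2, which are among the genes with the smallest p in the comparisons, and Mog, Opalin and Mobp, whose windows hold motif matches and which mark the mature cell. The capitals mark matches, on either strand, to a SOX core (ACAAAG or ACAATG), an E-box of the kind OLIG proteins bind (CAGCTG or CAGATG), the MYRF core (CTGGCAC or CTGGTAC) and a TATA box (TATAAA). The stretches, 5′ to 3′ in the direction of the gene, lie at chr11:73324638-73324887 on the minus strand (Aspa), chr3:31149670-31149919 on the plus strand (Cldn11), chr7:139582798-139583047 on the minus strand (Nkx6-2), chr17:37023399-37023648 on the minus strand (Mog), chr19:41077114-41077363 on the minus strand (Opalin) and chr9:120149492-120149706 on the plus strand (Mobp, stopped where the annotated first exon begins). The Aspa stretch lies in an intron of the longer GENCODE M21 model of that gene.
Aspa: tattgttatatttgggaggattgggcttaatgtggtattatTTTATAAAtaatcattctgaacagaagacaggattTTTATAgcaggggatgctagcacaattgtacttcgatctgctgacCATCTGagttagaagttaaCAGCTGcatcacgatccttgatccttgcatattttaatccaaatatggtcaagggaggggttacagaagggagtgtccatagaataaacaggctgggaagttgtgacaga
Cldn11: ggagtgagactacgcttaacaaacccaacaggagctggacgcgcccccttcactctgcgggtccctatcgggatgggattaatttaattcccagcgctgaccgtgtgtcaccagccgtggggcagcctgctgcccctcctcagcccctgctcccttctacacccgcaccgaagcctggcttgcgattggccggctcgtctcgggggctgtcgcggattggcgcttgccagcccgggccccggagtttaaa
Nkx6-2: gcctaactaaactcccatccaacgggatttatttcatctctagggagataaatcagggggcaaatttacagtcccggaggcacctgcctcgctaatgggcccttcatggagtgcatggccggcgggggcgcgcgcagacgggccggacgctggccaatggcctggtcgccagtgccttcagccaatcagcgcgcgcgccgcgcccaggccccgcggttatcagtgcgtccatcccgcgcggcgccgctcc
Mog: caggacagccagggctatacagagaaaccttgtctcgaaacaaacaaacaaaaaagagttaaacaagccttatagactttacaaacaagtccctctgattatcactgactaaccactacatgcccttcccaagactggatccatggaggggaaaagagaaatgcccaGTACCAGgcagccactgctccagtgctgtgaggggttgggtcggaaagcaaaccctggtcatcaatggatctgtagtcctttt
Opalin: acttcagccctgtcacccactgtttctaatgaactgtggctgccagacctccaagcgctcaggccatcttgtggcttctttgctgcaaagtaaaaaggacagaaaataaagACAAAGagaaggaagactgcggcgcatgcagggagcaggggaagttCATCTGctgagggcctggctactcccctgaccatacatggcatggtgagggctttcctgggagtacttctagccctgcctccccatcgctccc
Mobp: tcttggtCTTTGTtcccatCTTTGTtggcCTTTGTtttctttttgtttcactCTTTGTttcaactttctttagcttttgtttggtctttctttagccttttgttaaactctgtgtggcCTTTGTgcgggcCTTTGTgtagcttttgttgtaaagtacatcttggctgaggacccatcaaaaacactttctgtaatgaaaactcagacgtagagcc

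The Mobp stretch holds 6 SOX core matches, the Aspa stretch 2 E-boxes and 3 TATA matches, and the Mog stretch 1 MYRF core. The stretches of Cldn11 and Nkx6-2 hold none of the 4 motifs and are rich in G and C, at 63.6% and 65.2%, against 38.8% for Aspa and 39.1% for Mobp. Over the 33 windows of 300 bases, 45.5% held a SOX core, against 28.6% of all 32851 windows in the table. A MYRF core was in 18.2% against 7.1% of all windows, an E-box in 33.3% against 30.6% and a TATA box in 15.2% against 13.6%. The motifs were searched one by one on both strands, so matches may overlap, as the pair of TATA matches that share capitals in Aspa do. Several genes have more than 1 window, windows of 1 gene can share bases, and a match is a description of letters, not a binding site.

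Across the 4 groups, none of the 31 genes passed the test in any of 6 comparisons, with edgeR's quasi-likelihood test and Benjamini-Hochberg adjustment over all 17736 genes at a threshold of 0.05. These were Tau+ against Tau- within Ch25h+/+ and within Ch25h-/-, the mean and the difference of those 2 tau effects, and Ch25h-/- against Ch25h+/+ within Tau- and within Tau+. The heat map of the 31 genes shows the values behind this. Within a group, the same library was often the highest or the lowest for most of the genes.

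**Figure D1:**
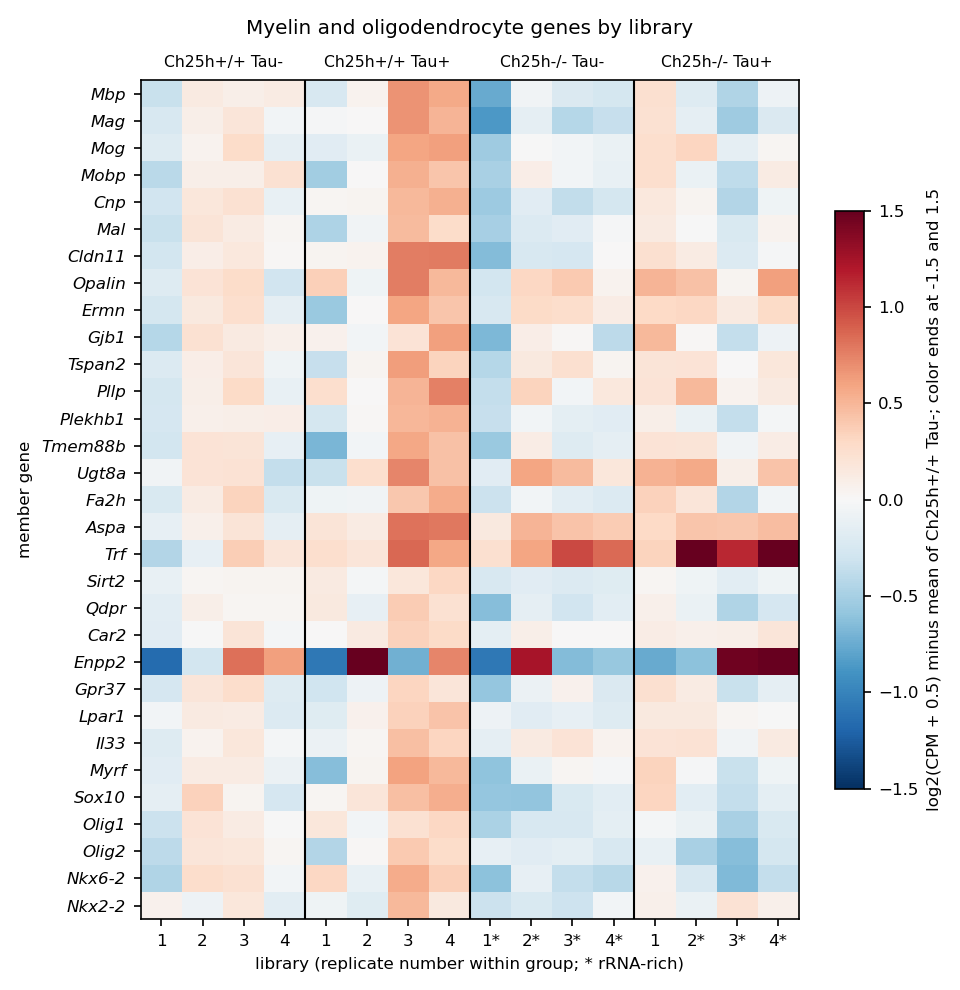
Each cell is 1 gene in 1 library: log2(CPM + 0.5) minus the mean of the 4 Ch25h+/+ Tau- libraries, with colors ending at -1.5 and 1.5, and asterisks on the 7 rRNA-rich libraries. Ch25h+/+ Tau+ replicates 3 and 4 form a red block over nearly all genes, Trf is red through the Ch25h-/- libraries, and Enpp2 follows a pattern of its own.

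Summed over 30 genes, leaving out Enpp2, the level of the Ch25h+/+ libraries ran from 3131 to 4182 CPM without tau and from 3364 to 5667 CPM with tau. In Ch25h-/- it ran from 2611 to 3719 CPM without tau and from 3029 to 4419 CPM with tau. All 4 ranges overlap. Within Ch25h+/+ Tau+, replicates 3 and 4 stood above replicates 1 and 2 for 30 of the 31 genes, the exception being Enpp2. For 27 genes, replicates 3 and 4 also stood above every Ch25h+/+ Tau- library, while replicates 1 and 2 were both at or below the highest Ch25h+/+ Tau- library for 25 genes. In the other groups 1 library was low for most genes: replicate 1 was the lowest for 24 genes in Ch25h+/+ Tau- and for 28 in Ch25h-/- Tau-, and replicate 3 for 25 in Ch25h-/- Tau+. Ch25h-/- Tau+ replicate 1, the Ch25h-/- library that was not rRNA-rich, was the highest of its group for 18 genes, and for the same 18 genes it stood above all 7 rRNA-rich Ch25h-/- libraries.

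**Figure D2:**
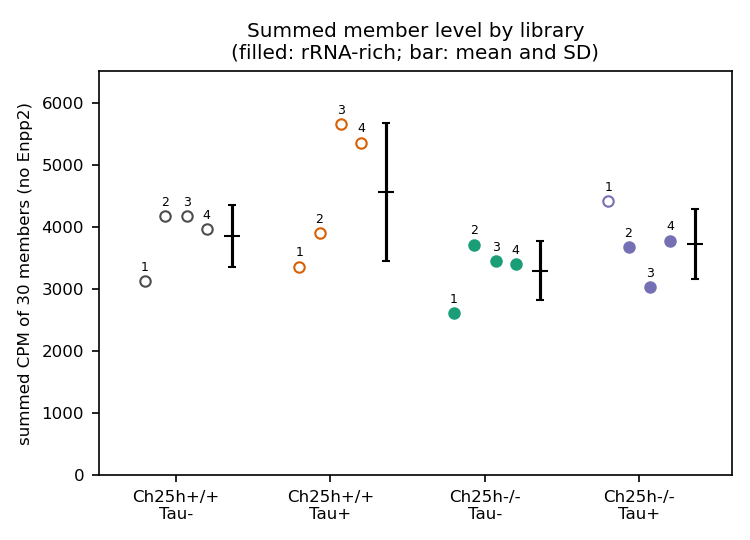
Summed CPM of the 30 genes without Enpp2 in each library (numbered points, filled where rRNA-rich), with the mean and SD of each group of 4. The 2 highest libraries are Ch25h+/+ Tau+ replicates 3 and 4, and the lowest is Ch25h-/- Tau- replicate 1 at 2611 CPM.

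The first comparison asked how the myelin genes stood in tau-bearing brain with Ch25h present. All 31 had a higher estimate in Ch25h+/+ Tau+ than in Ch25h+/+ Tau-, with a median log2 fold change of 0.22, against -0.01 over all 17736 genes. None passed the test, where 1.56% of all genes were called, and none had groups that did not overlap, where 5.86% of all genes had. At an unadjusted p under 0.05 there were 6 (Aspa, Cldn11, Car2, Pllp, Opalin and Sirt2), against 9.38% of all genes, and the smallest adjusted p was 0.114. DESeq2 and limma-voom each called 1, Aspa, where they called 2.39% and 2.81% of all genes. The median was 0.14 without Ch25h+/+ Tau+ replicate 3, 0.15 without replicate 4 and 0.35 without replicate 1. With replicates 1 and 2 alone standing for Ch25h+/+ Tau+, an alternative chosen after seeing the data, the median was -0.02 and 13 genes were higher.

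Aspa (GRCm38, chromosome 11, 73304992 to 73329596, minus strand) encodes aspartoacylase, which splits N-acetylaspartate and so supplies acetate for myelin lipid synthesis. Its levels were 9.75, 11.3, 12.3 and 9.67 CPM in Ch25h+/+ Tau- and 12.3, 11.7, 19.2 and 18.9 CPM in Ch25h+/+ Tau+. Replicates 3 and 4 of the Tau+ group stood apart from the rest, and replicates 1 and 2 lay at or just below the top of the Tau- group. In Ch25h-/- animals Aspa was at 11.9, 15.4, 14.6 and 14.1 CPM without tau and 13.3, 14.5, 14.3 and 14.9 CPM with tau, so both of those groups lay between the Ch25h+/+ groups' extremes and overlapped each other. The tau effect in Ch25h+/+ was a log2 fold change of 0.53 ± 0.15 (SE, n = 4 against 4, adjusted p = 0.114 with edgeR), and in Ch25h-/- it was 0.03 ± 0.15 (adjusted p = 1). Over 26 alternatives the Aspa tau effect in Ch25h+/+ ran from 0.16 to 0.66 and its adjusted p from 0.0205 to 0.837, and 4 of them put it past the threshold.

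Cldn11 (chromosome 3, 31149920 to 31164324, plus strand), the claudin of the tight junctions between myelin layers, was at 76.2, 99.5, 103 and 93.7 CPM in Ch25h+/+ Tau- and 95.4, 96.3, 157 and 159 CPM in Ch25h+/+ Tau+. Replicates 3 and 4 were again high and replicates 1 and 2 lay inside the Tau- range. In Ch25h-/- it was at 58.7, 77.9, 77.5 and 93.1 CPM without tau and 109, 101, 79.9 and 91.4 CPM with tau, 2 overlapping groups. Its tau effect was 0.45 ± 0.17 in Ch25h+/+ (adjusted p = 0.334 with edgeR), and as a mean over both genotypes 0.38 ± 0.12 (adjusted p = 0.191). Over 26 alternatives the Cldn11 estimate in Ch25h+/+ ran from 0.04 to 0.60. Car2, a carbonic anhydrase of oligodendrocytes, was at 129.8, 146, 168 and 144 CPM in Ch25h+/+ Tau- and 147, 161, 186 and 178 CPM in Ch25h+/+ Tau+, a log2 fold change of 0.20 ± 0.08 (adjusted p = 0.447). In Ch25h-/- it was at 132, 156, 146 and 147 CPM without tau and 159, 154, 156 and 166 CPM with tau. The Car2 groups overlap in both genotypes.

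The other sheath proteins had small positive estimates with wide intervals. Mbp was at 1116, 1543, 1499 and 1530.3 CPM in Ch25h+/+ Tau- and 1197, 1459, 2258 and 2096 CPM in Ch25h+/+ Tau+, and at 837, 1363, 1215 and 1171 CPM and 1672, 1229, 1027 and 1338 CPM in the Tau- and Tau+ groups of Ch25h-/-. The highest and the lowest Mbp libraries of Ch25h+/+ Tau+ differ by more than the group means of any comparison do, and all 4 groups overlap. The 95% interval of its tau effect ran from -0.10 to 0.70 in Ch25h+/+ and from -0.20 to 0.60 in Ch25h-/-, on the log2 scale. Mag, an adhesion protein of the innermost myelin layer that faces the axon, had a mean of 153 ± 19.1 CPM (SD, n = 4) in Ch25h+/+ Tau- and 191 ± 46.8 CPM in Ch25h+/+ Tau+. Mog, a surface protein of the outermost layer, had means of 35.5 ± 5.40 and 42.9 ± 12.6 CPM in the same groups. Mal, a raft proteolipid of the sheath, had the smallest estimate of the 14 sheath and junction proteins, at 0.09 ± 0.16. Pllp, the membrane proteolipid plasmolipin, and Opalin, a sialoprotein of central myelin, each had an estimate of 0.41 ± 0.18. The antisense gene Gm45767 covers 54.2% of the Pllp exon bases, so reads of the 2 cannot be told apart if strand was not used.

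In Ch25h-/- animals 30 of the 31 genes had a higher estimate with tau, with a median log2 fold change of 0.19, against 0.01 over all genes. None passed the test, where 0.0395% of all genes did, none had an unadjusted p under 0.05, and DESeq2 and limma-voom called none (0.0789% and 0.0338% of all genes). The median was 0.07 without Ch25h-/- Tau- replicate 1 (25 genes higher), 0.10 without Ch25h-/- Tau+ replicate 1, 0.11 with the library class as a covariate, 0.12 with limma-voom and 0.29 with the log2 of the summed CPM of 9 striatum markers, described further on, as a covariate. The exception in direction was Olig2, at -0.19 ± 0.16. Sirt2 and Lpar1 had groups that did not overlap, 2 of 31 genes, where 2.14% of all genes did not. Lpar1, a receptor for the lysophosphatidic acid that Enpp2 makes, was at 24.3, 22.7, 23.4 and 22.4 CPM without tau and 28.4, 28.5, 26.1 and 25.6 CPM with tau in Ch25h-/-, a log2 fold change of 0.23 ± 0.12. In Ch25h+/+ it was at 24.9, 28.2, 27.9 and 22.1 CPM and 22.5, 26.9, 32.6 and 34.7 CPM, and those groups overlap.

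Sirt2 (chromosome 7, 28766735 to 28788661, plus strand) encodes a deacetylase of tubulin that is carried in myelin. Its levels were 111, 122, 124 and 123 CPM in Ch25h+/+ Tau-, 132, 118, 135 and 149 CPM in Ch25h+/+ Tau+, 102, 106, 104 and 106 CPM in Ch25h-/- Tau- and 122, 115, 108 and 115 CPM in Ch25h-/- Tau+. All 4 Ch25h-/- Tau- libraries lay below every library of the other 3 groups. The tau effect was 0.15 ± 0.07 in Ch25h+/+ (adjusted p = 0.510 with edgeR) and 0.14 ± 0.07 in Ch25h-/- (adjusted p = 1), and the difference of those 2 was -0.01, with a 95% interval from -0.22 to 0.19. As a mean over both genotypes it was 0.14 ± 0.05 (adjusted p = 0.255).

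Trf (GRCm38, chromosome 9, 103204001 to 103230444, minus strand) encodes transferrin, the iron carrier, which oligodendrocytes of the brain make and which choroid plexus also makes. Its levels were 4.76, 6.07, 8.72 and 7.61 CPM in Ch25h+/+ Tau-, 8.01, 7.61, 12.4 and 10.1 CPM in Ch25h+/+ Tau+, 7.95, 10.2, 13.6 and 12.4 CPM in Ch25h-/- Tau- and 8.49, 20.3, 15.1 and 19.5 CPM in Ch25h-/- Tau+. The group means went up in that order, from 6.79 ± 1.73 to 15.9 ± 5.41 CPM (SD, n = 4), and neighbouring groups overlap. Trf had a tau effect of 0.49 ± 0.25 in Ch25h+/+ and 0.51 ± 0.25 in Ch25h-/- (adjusted p = 0.595 and 1 with edgeR). Ch25h loss had an estimate of 0.72 ± 0.25 in Tau+ (adjusted p = 0.0967) and 0.70 ± 0.25 in Tau- (adjusted p = 0.133). Ch25h-/- Tau+ replicate 1, at 8.49 CPM, lay among the Ch25h+/+ libraries while the 3 rRNA-rich libraries of its group stood at 15.1 to 20.3 CPM. With the library class as a covariate, whose effect rests on that replicate, the Trf estimate for Ch25h loss in Tau- was -0.41. Exons of a second gene model on the same strand, Gm20425, cover 63.5% of the Trf exon bases and were given 0 to 3 counts per library, so Trf counts rest on how shared reads were handled.

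**Figure D3:**
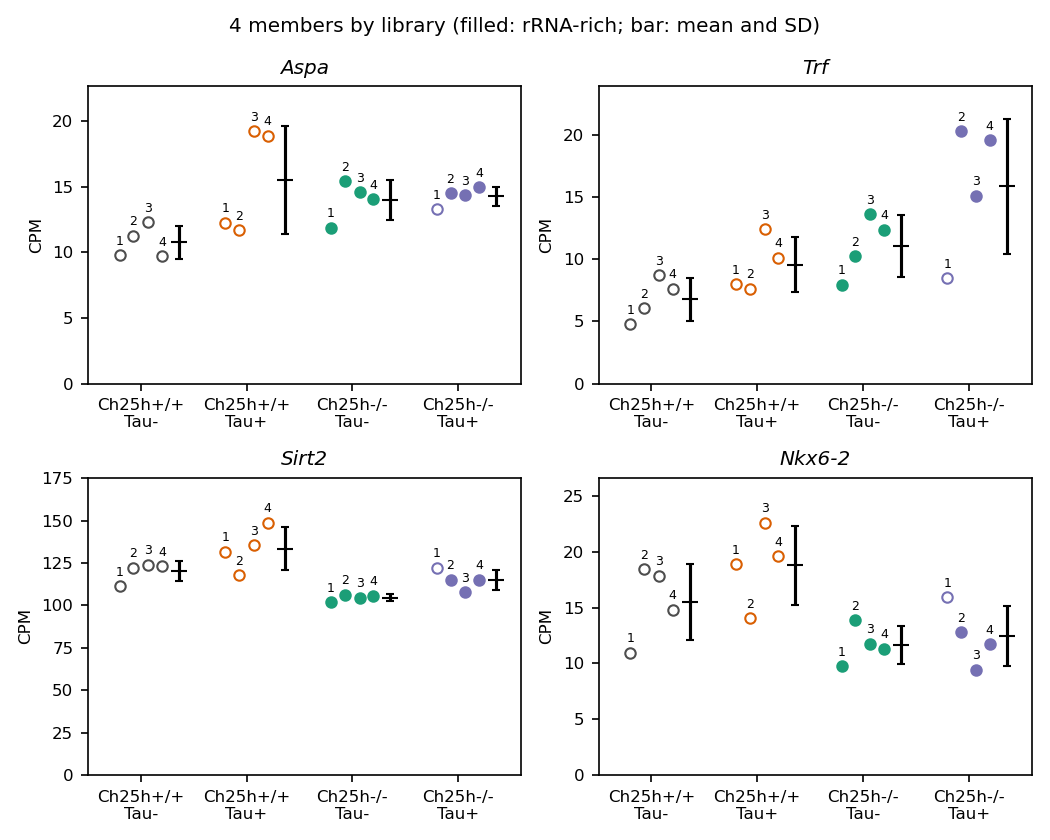
CPM of Aspa, Trf, Sirt2 and Nkx6-2 in each library (numbered points, filled where rRNA-rich), with the mean and SD of each group of 4. Aspa is split within Ch25h+/+ Tau+, the 4 highest Trf values are in rRNA-rich libraries, and Sirt2 in Ch25h-/- Tau- lies below the other groups.

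The next comparison asked how the genes stood without Ch25h in tau-bearing brain. It shares the Ch25h+/+ Tau+ libraries with the tau effect in Ch25h+/+, so replicates 3 and 4 of that group enter both. With Ch25h loss in Tau+, 27 genes had a lower and 4 a higher estimate, with a median log2 fold change of -0.17, against 0.00 over all genes. None passed the test, where 3.55% of all genes did, and none had groups that did not overlap, where 10.2% of all genes had. At an unadjusted p under 0.05 there were 12, of which 11 were lower, against 23.9% of all genes in either direction, and the smallest adjusted p was 0.0745. DESeq2 called 3 (Trf higher, Olig1 and Nkx6-2 lower), where it called 7.88% of all genes, and limma-voom with quality weights 11, all lower, where it called 10.6% of all genes. Without Ch25h-/- Tau+ replicate 1, edgeR called 8 (Trf higher and Mag, Sirt2, Qdpr, Sox10, Olig1, Olig2 and Nkx6-2 lower), where 9.42% of all genes were called. In that fit every Ch25h-/- library was rRNA-rich and no Ch25h+/+ library was, so Ch25h loss and the class cannot be told apart. The median over the 31 genes was -0.03 without Ch25h+/+ Tau+ replicate 3, -0.05 without replicate 4, -0.27 without replicate 2 and -0.10 without Ch25h-/- Tau+ replicate 3. It was -0.05 with the library class as a covariate (19 genes lower and 12 higher), -0.07 with the striatum marker sum as a covariate and -0.25 with limma-voom. With replicates 1 and 2 alone standing for Ch25h+/+ Tau+ the median was 0.10 and 20 genes were higher.

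The transcription factors had the lowest median of the 4 roles in this comparison, at -0.38, and all 6 estimates were negative. Nkx6-2 (chromosome 7, 139579376 to 139582797, minus strand), a homeodomain factor of maturing oligodendrocytes, was at 18.9, 14.1, 22.6 and 19.6 CPM in Ch25h+/+ Tau+ and 15.9, 12.8, 9.43 and 11.7 CPM in Ch25h-/- Tau+, a log2 fold change of -0.58 ± 0.18 (adjusted p = 0.0745 with edgeR). The 2 groups overlap through replicate 2 of the first and replicate 1 of the second. In Tau- animals it was at 10.9, 18.4, 17.9 and 14.8 CPM with Ch25h and 9.76, 13.9, 11.8 and 11.3 CPM without, a log2 fold change of -0.41 ± 0.18 (adjusted p = 0.213). The coding gene Inpp5a covers 12.9% of the Nkx6-2 exon bases on the other strand.

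Olig1 (chromosome 16, 91269772 to 91271933, plus strand), a basic helix-loop-helix factor of the lineage, was at 154, 133, 160.1 and 169 CPM in Ch25h+/+ Tau+ and 133, 128, 97.3 and 117 CPM in Ch25h-/- Tau+, a log2 fold change of -0.37 ± 0.12 (adjusted p = 0.0748 with edgeR). Its lowest Ch25h+/+ library and its highest Ch25h-/- library meet, at 133 CPM each. In Tau- animals it was at 109, 158, 149 and 135 CPM with Ch25h and 97.8, 115, 116 and 124 CPM without. Olig2, the related factor that sets the lineage, was at 28.8, 43.0, 42.7 and 38.6 CPM in Ch25h+/+ Tau-, 27.7, 38.4, 49.7 and 45.8 CPM in Ch25h+/+ Tau+, 34.8, 33.5, 34.2 and 32.0 CPM in Ch25h-/- Tau- and 35.1, 26.9, 24.0 and 31.5 CPM in Ch25h-/- Tau+. Replicate 1 was the low library in both Ch25h+/+ groups. The estimate for Ch25h loss was -0.46 ± 0.16 in Tau+ (adjusted p = 0.0971) and -0.19 ± 0.16 in Tau- (adjusted p = 0.523).

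Sox10, which acts with Myrf to turn on myelin genes, was at 46.7, 65.1, 52.6 and 43.1 CPM in Ch25h+/+ Tau-, 52.2, 58.0, 70.3 and 74.8 CPM in Ch25h+/+ Tau+, 34.2, 33.9, 43.8 and 45.8 CPM in Ch25h-/- Tau- and 64.4, 45.8, 40.0 and 46.1 CPM in Ch25h-/- Tau+. Replicate 1 of Ch25h-/- Tau+ lay among the Ch25h+/+ Tau+ libraries and the other 3 lay below all of those. The Sox10 estimate for Ch25h loss was -0.38 ± 0.16 in Tau+ and -0.39 ± 0.16 in Tau- (adjusted p = 0.158 and 0.169 with edgeR). Myrf, the membrane-bound factor that keeps the mature cell in its state, had estimates of -0.20 ± 0.20 and -0.16 ± 0.21 in the same 2 comparisons. Nkx2-2, a homeodomain factor of earlier stages, was at 4.07, 3.66, 4.40 and 3.43 CPM in Ch25h+/+ Tau-, 3.70, 3.37, 5.62 and 4.34 CPM in Ch25h+/+ Tau+, 3.01, 3.24, 3.01 and 3.74 CPM in Ch25h-/- Tau- and 4.11, 3.57, 4.60 and 4.12 CPM in Ch25h-/- Tau+. These rest on 50 to 121 counts per library, and all 4 groups overlap.

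Among the sheath proteins, Mag had the lowest estimate for Ch25h loss in Tau+, at -0.47 ± 0.18 (adjusted p = 0.122 with edgeR), from 150.4, 153, 244 and 218 CPM in Ch25h+/+ Tau+ to 179, 138, 105 and 130.4 CPM in Ch25h-/- Tau+. Those Mag groups overlap. Cldn11 and Mbp each had an estimate of -0.41, Cnp of -0.35, and Plekhb1 of -0.32, with adjusted p of 0.151 to 0.198. Qdpr, which regenerates tetrahydrobiopterin, had an estimate of -0.34 ± 0.12 (adjusted p = 0.114), and Sirt2 of -0.21 ± 0.07 (adjusted p = 0.0860). Opalin and Tmem88b, at -0.00 and -0.04, and Ermn, an actin-linked protein of the outer sheath, at 0.08, lay near 0. So did the galactosylceramide synthase Ugt8a at 0.09 ± 0.20, while Fa2h, which hydroxylates the fatty acids of the same lipids, had an estimate of -0.20 ± 0.17.

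With Ch25h loss in Tau- animals, 23 genes had a lower and 8 a higher estimate, with a median of -0.19, against 0.01 over all genes. None passed the test, where 1.03% of all genes did. DESeq2 and limma-voom called none of them either, where they called 5.45% and 7.83% of all genes. At an unadjusted p under 0.05 there were 9, with Trf and Aspa higher and Mag, Cnp, Sirt2, Qdpr, Sox10, Olig1 and Nkx6-2 lower, against 20.9% of all genes. Sirt2, at -0.20 ± 0.07 (adjusted p = 0.121 with edgeR), was the 1 gene of 31 with groups that did not overlap, where 16.2% of all genes had such groups. Aspa, at 0.38 ± 0.15 (adjusted p = 0.168), was higher without Ch25h in 3 of 4 libraries than in any Ch25h+/+ Tau- library. With the library class as a covariate the median over the 31 genes was 0.08, and with the striatum marker sum it was -0.09. Leaving out Ch25h-/- Tau- replicate 1 gave -0.10, and leaving out replicate 3 of Ch25h+/+ Tau- gave -0.12.

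**Figure D4:**
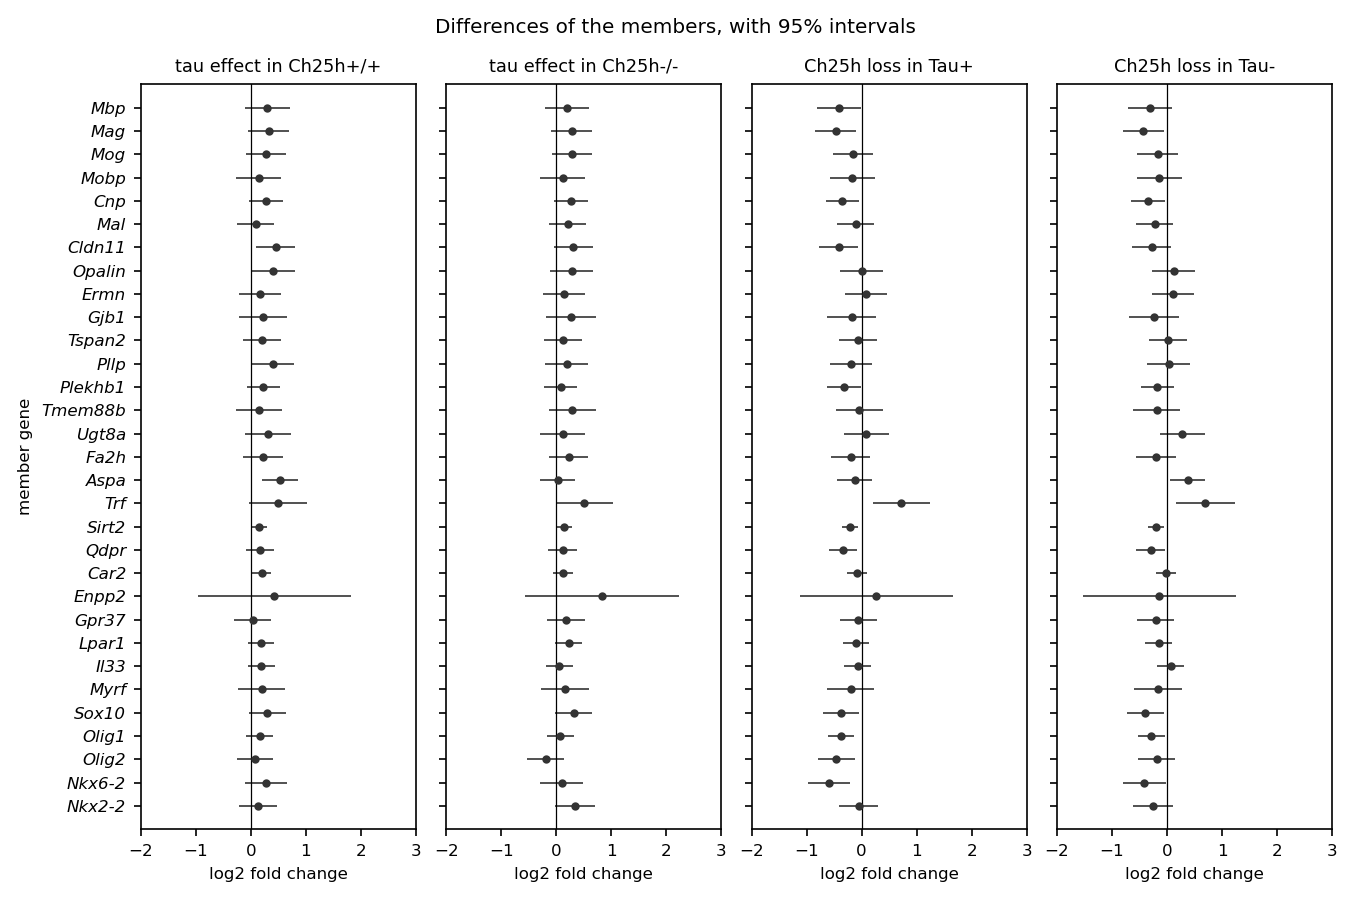
Log2 fold change of each gene with its 95% interval in 4 comparisons (x axes from -2 to 3). Points lie mostly right of 0 for tau and left of 0 for Ch25h loss, Trf lies farthest right for Ch25h loss in both backgrounds, and Enpp2 has the widest intervals.

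Estimates for Ch25h loss differed with GC content over all genes, and those of the myelin genes were lower in the GC-rich range. In Tau+, 69.3% of all genes with at least 50% GC in their longest transcript had a lower estimate without Ch25h, with a median of -0.11. Of the 18 myelin genes in that range 17 were lower, with a median of -0.28. Of all genes under 50% GC, 31.1% were lower, with a median of 0.11, and of the 13 myelin genes there 10 were lower, with a median of -0.07. In Tau- the 18 GC-rich myelin genes had a median of -0.25 and the 13 others -0.01, against -0.12 and 0.12 over all genes of those ranges. The transcription factors named above, Mag, Cnp and Sirt2 are in the GC-rich range, and Aspa, Ugt8a, Ermn and Opalin in the other. With counts corrected for the GC trend of each library (loess offsets), an alternative chosen after seeing the data, the median over the 31 genes was -0.13 in Tau+ and -0.14 in Tau-. For Ch25h loss in Tau+, the Nkx6-2 estimate was -0.29 with those offsets and -0.24 with the library class as a covariate, in place of -0.58. Olig1 was at -0.13 and -0.21 in those fits, in place of -0.37, and Sirt2 at -0.10 and -0.13, in place of -0.21.

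The interaction asked whether the tau effect differed with Ch25h. Its median over the 31 genes was -0.04, against 0.02 over all genes, with 10 higher and 21 lower estimates. None passed the test, where 0.0338% of all genes did, nor with DESeq2 (0.31% of all genes called) or limma-voom (0.0338%). Aspa, at -0.50 ± 0.21, was the 1 gene of the 31 with an unadjusted p under 0.05 (adjusted p = 1 with edgeR), against 4.13% of all genes. Over 25 alternatives the Aspa interaction ran from -0.64 to -0.13. Olig2 was at -0.27 ± 0.22 and Nkx2-2 at 0.21 ± 0.24 (adjusted p = 1 for each). The 95% interval of the interaction ran from -0.67 to 0.46 for Mbp, from -0.56 to 0.49 for Mag and from -0.32 to 0.18 for Car2. The sign of this median turned when 1 library was left out: it was 0.06 without Ch25h+/+ Tau+ replicate 3 (20 genes higher), 0.04 without replicate 4 of that group, 0.03 without Ch25h-/- Tau+ replicate 3, and 0.01 when replicate 1 of Ch25h+/+ Tau- was left out. At the other end it was -0.15 without replicate 1 of either Ch25h-/- group. With replicates 1 and 2 alone standing for Ch25h+/+ Tau+, the median was 0.26.

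As a mean over both genotypes, the tau effect had a median of 0.21 over the 31 genes, against -0.00 over all genes, and 30 of 31 were higher. None passed the test, where 0.857% of all genes did, nor with DESeq2 (1.65% of all genes called) or limma-voom (1.45%). At an unadjusted p under 0.05 there were 12, against 9.85% of all genes. The smallest adjusted p were those of Cldn11 at 0.191, Sirt2 at 0.255 and Trf at 0.280. The median was 0.14 without Ch25h+/+ Tau+ replicate 3, 0.33 with the striatum marker sum as a covariate and 0.07 with replicates 1 and 2 alone standing for that group.

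Enpp2 (chromosome 15, 54838901 to 54952892, minus strand) encodes autotaxin, which makes lysophosphatidic acid and is known from oligodendrocytes and from choroid plexus. Its levels were 162, 297, 638 and 553 CPM in Ch25h+/+ Tau-, 171, 1226, 219 and 599 CPM in Ch25h+/+ Tau+, 171, 851, 229.8 and 243 CPM in Ch25h-/- Tau- and 214, 235, 989.6 and 1233 CPM in Ch25h-/- Tau+. High and low libraries occur in every group. In the 7 libraries where 8 choroid plexus markers (Ttr, Kl, Folr1, Clic6, Aqp1, Kcnj13, Slc4a5 and Otx2) summed to 1146 to 2793 CPM, Enpp2 was at 553 to 1233 CPM. In the other 9, where the markers summed to 16.5 to 295 CPM, it was at 162 to 297 CPM. Mbp did not split this way, at 1027 to 2096 CPM in the 7 libraries and 837 to 2258 CPM in the 9. The 95% interval of the Enpp2 tau effect ran from -0.97 to 1.82 in Ch25h+/+.

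**Figure D5:**
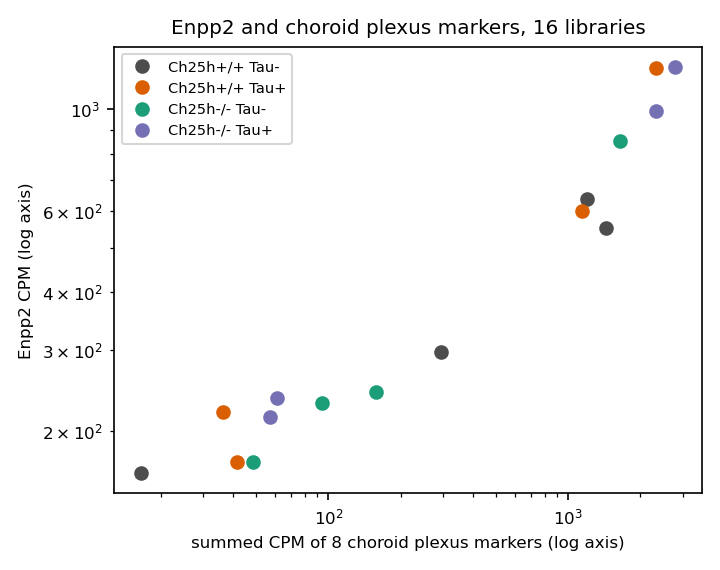
Enpp2 CPM against the summed CPM of 8 choroid plexus markers in the 16 libraries, both on log axes, colored by group. The 7 libraries with a marker sum of at least 1146 CPM hold the 7 highest Enpp2 values.

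Gpr37, a receptor that restrains oligodendrocyte maturation, had a mean of 74.7 ± 13.7 CPM (SD, n = 4) in Ch25h+/+ Tau- and 76.5 ± 14.2 CPM in Ch25h+/+ Tau+. Il33, a nuclear cytokine released from damaged cells, had means of 43.4 ± 4.62, 49.5 ± 8.57, 45.4 ± 4.63 and 47.2 ± 3.97 CPM in the Tau- and Tau+ groups of Ch25h+/+ and then of Ch25h-/-. Il33 lies 4.55 Mb and Opalin 6.59 Mb from Ch25h on chromosome 19. Myrf lies farther off on the same chromosome, at 10208272 to 10240748, with Ch25h at 34473778 to 34475164. None of Il33, Opalin and Myrf had an unadjusted p under 0.05 for Ch25h loss. Over all libraries Tspan2, a tetraspanin, ran from 54.6 to 113 CPM, Tmem88b from 38.0 to 92.0 CPM and Gjb1, a connexin of myelin channels, from 6.93 to 17.7 CPM.

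Other genes of the same cells gave a few calls. Of 38 further genes of mature oligodendrocytes, all 38 had a higher estimate with tau in Ch25h+/+, with a median of 0.19, and 2 rose, where 1.56% of all genes were called: Gsn, encoding the actin-severing protein gelsolin, by 0.63 ± 0.11 (adjusted p = 0.00257 with edgeR), and Apod, encoding apolipoprotein D, by 0.59 ± 0.14 (adjusted p = 0.0338). Without Ch25h in Tau+ animals 3 of the 38 fell, where 3.55% of all genes were called: Gsn (-0.54 ± 0.11, adjusted p = 0.0132), Gpr62 (-0.56 ± 0.15, adjusted p = 0.0457) and Ppp1r14a (-0.63 ± 0.17, adjusted p = 0.0486). Gpr62 lost its call in 16 and Ppp1r14a in 19 of 26 alternatives, with estimates over all 26 of -0.68 to -0.29 and -0.84 to -0.20. With GC-corrected offsets they were -0.29 and -0.39, and with the library class as a covariate -0.31 and -0.20. Gsn lost its call for Ch25h loss in 6 of 26: without Ch25h+/+ Tau+ replicate 4 (-0.49, adjusted p = 0.0582) or Ch25h-/- Tau+ replicate 3 (-0.50, 0.0572), with only the 2 groups compared (-0.54, 0.0539), with GC-corrected offsets (-0.38, 0.0721), with replicates 1 and 2 alone standing for Ch25h+/+ Tau+ (-0.40, 0.107) and with the library class as a covariate (-0.32, 0.976). Its tau call was lost in 1 of 26, with those replicates alone (0.49, adjusted p = 0.1095). Apod lost its call without replicate 1 or 4 of either Ch25h+/+ group (0.47 to 0.57, adjusted p = 0.0770 to 0.181), with only the 2 groups compared (0.60, 0.139), with the striatum marker sum as a covariate (0.57, 0.243) and with replicates 1 and 2 alone (0.44, 0.361). Gsn had means of 56.7 ± 6.73, 87.7 ± 10.3, 49.9 ± 4.40 and 60.3 ± 7.08 CPM (SD, n = 4) in the Tau- and Tau+ groups of Ch25h+/+ and then of Ch25h-/-. None of the 38 was called for tau in Ch25h-/- or for Ch25h loss in Tau-, where 0.0395% and 1.03% of all genes were.

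Genes known from disease-associated oligodendrocytes gave more calls. In Ch25h+/+, the median log2 fold change with tau over 9 of them was 0.93 and 5 rose, where 1.56% of all genes were called: C4b by 2.50 ± 0.26, Serpina3n by 2.27 ± 0.35, H2-D1 by 1.07 ± 0.09, H2-K1 by 1.05 ± 0.12 and B2m by 0.93 ± 0.11, with adjusted p of 2.43e-06 to 0.00132. C4b encodes a complement protein, Serpina3n a protease inhibitor, and the other 3 parts of MHC class I. All 5, and Cd63, fell with Ch25h loss in Tau+, where 3.55% of all genes were called, and none of the 9 was called for tau in Ch25h-/- or for Ch25h loss in Tau-, where 0.0395% and 1.03% of all genes were. The interaction was called for H2-D1, at -0.84 ± 0.13 (adjusted p = 0.0222 with edgeR), where 0.0338% of all genes were called. That call was lost without Ch25h+/+ Tau- replicate 4 or Ch25h-/- Tau+ replicate 3 or 4 (adjusted p = 0.0566 to 0.0589). It was also lost with the library class as a covariate (0.0565) and with replicates 1 and 2 alone standing for Ch25h+/+ Tau+ (0.115). The H2-D1 estimate was -0.82 to -0.85 in all 5. With the library class as a covariate, C4b and Serpina3n lost their calls for Ch25h loss (adjusted p = 0.306 and 0.437), with estimates of -1.88 and -2.38 in place of -1.94 and -2.19. Only 0.0564% of all genes were called in that fit. Cd63 (-0.59) lost its call in 10 of 26 alternatives, with estimates of -0.76 to -0.40 in those, and B2m (-0.61) lost it with only the 2 groups compared (-0.61, adjusted p = 0.0548). Microglia and astrocytes also express these genes. Of 8 microglia markers, 6 rose with tau in Ch25h+/+, with a summed level of 367 to 379 CPM without tau and 573 to 725 CPM with tau. With Ch25h loss in Tau+, 7 of 8 fell. Of these markers C1qa was also called for the interaction (-1.26 ± 0.20, adjusted p = 0.0222 with edgeR). Whether the microglia calls held under the alternatives was not tested, nor was the part of each cell type.

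None of 14 precursor and premyelinating genes, 12 galactolipid and sphingolipid enzymes, 11 genes of the node and paranode or 8 neuron markers was called in any of the 6 comparisons with edgeR, in which 0.0338% to 3.55% of all genes were called. At an unadjusted p under 0.05 for Ch25h loss in Tau+ there were 5, 1, 1 and 3 of them, in that order, against 23.9% of all genes. The precursor genes summed to 526 to 719 CPM over the libraries, and 13 of the 14 had a higher estimate with tau in Ch25h+/+, with a median of 0.25. Of 7 astrocyte markers, all had a higher estimate with tau in Ch25h+/+ (median 0.19, none called, 3 with an unadjusted p under 0.05), and 6 had a lower one with Ch25h loss in Tau+ (median -0.19). Aldoc, a glycolytic aldolase, fell there by 0.33 ± 0.08 (adjusted p = 0.0316 with edgeR), from 896 ± 78.3 to 714 ± 35.3 CPM (SD, n = 4). Its call was lost in 9 of 26 alternatives, among them without Ch25h+/+ Tau+ replicate 4 (-0.29, adjusted p = 0.108) and without Ch25h-/- Tau+ replicate 2, 3 or 4 (-0.31 to -0.37, adjusted p = 0.0570 to 0.106). The summed astrocyte markers were at 4041 to 4400 CPM without tau and 3675 to 5678 CPM with tau in Ch25h+/+, at 4307 to 5085 and 4456 to 5294 CPM in Ch25h-/-, and none was at 0. The part of astrocytes in the myelin gene values was not tested.

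The 9 striatum markers, among them Ppp1r1b, Drd1 and Drd2, were taken as a possible sign of the dissection, which was not tested. In Ch25h+/+ they summed to 288 to 460 CPM without tau and 236 to 296 CPM with tau. In Ch25h-/- the sums were 274 to 325 CPM and 224 to 262 CPM. All 9 of these had a lower estimate with tau in both genotypes, and none was at 0. Their sum as a covariate is therefore not independent of tau status. Their part in the myelin gene values was not tested beyond a fit with their sum as a covariate, in which the median tau effect of the 31 genes in Ch25h+/+ was 0.34.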

How the data were processed

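RNA of mouse brain was measured in 16 libraries, 4 per group, with the groups taken from the genotype label. The authors deposited 1 table of raw counts per gene and library, with no normalization. Per the submitters' processing notes it was made with STAR 2.7 on GRCm38 (mm10). The counting program and its use of strand are not given in the sources used here, so overlapping and antisense genes are uncertain. The 31 genes and all lists were chosen with earlier results of these data known. The rule for named genes gave per-library values for the genes past the threshold or with the 3 smallest p in a comparison, and named genes of the other lists past the threshold, up to 4 per list and comparison. The latter are given by estimates or group means rather than per library, and the disease-associated list is named beyond 4. Mbp, Enpp2 and Lpar1 were given in full, and Mag in the Tau+ groups, after their values were seen.

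Genes were filtered with filterByExpr, scaled with TMM and fitted in 1 model of all 16 libraries with edgeR 4.0.16 in R 4.3.3 (quasi-likelihood F test, two-sided), with Benjamini-Hochberg adjustment over 17736 genes at a threshold of 0.05. Replicates were numbered as listed and carry no pairing. CPM used TMM-scaled library sizes. Alternatives were RLE size factors, no filter beyond 1 count, DESeq2 1.42.0, limma-voom (limma 3.58.1) with quality weights, only the groups compared, covariates for library class (above or below 1000 CPM of CT010467.1), for striatum and for choroid plexus markers, each library left out in turn, and CPM scaled to total counts. GC-corrected offsets and leaving out Ch25h+/+ Tau+ replicates 3 and 4 were added after seeing the data. Positions, exon lengths and GC content came from GENCODE M21, and GC was known for 99.3% of the genes tested. Exact counting intervals were not needed, since each gene had counts in every library. Depth was 15530352 to 25602500 counts per library.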

Additional observations from a re-analysis of the deposited data

Results flagged for a closer look

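In 124 sets of 4 libraries (31 genes in 4 groups), 5 had 1 library whose gap to its nearest neighbour passed Dixon's critical share of the group's range, and chance gives about 1 in 20. Replicate 1 of Ch25h+/+ Tau- was the low library for 3 genes: Mbp at 1116 CPM against 1499 to 1543 in the other 3, Plekhb1 at 189 CPM against 238 to 242, and Sirt2 at 111 CPM against 122 to 124. Ermn in Ch25h-/- Tau+ was at 44.3 CPM in replicate 3 and at 49.3 to 50.2 CPM in the other libraries. Enpp2 in Ch25h-/- Tau- was at 851 CPM in replicate 2 and at 171 to 243 CPM in the other libraries.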

How the results depend on the processing

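The count of the 31 genes past the threshold was 0 in each comparison. For tau in Ch25h+/+ it was 1 (Aspa) with DESeq2 and 1 with limma-voom (2.39% and 2.81% of all genes), and 0 to 1 when each library was left out in turn, with the 1 appearing without Ch25h+/+ Tau+ replicate 1 or 2 (1.65% and 1.48%). For Ch25h loss in Tau+ it was 5 with no filter on low counts (2.58% of all genes), 3 with DESeq2 (7.88%) and 11 with limma-voom (10.6%), and 0 to 8 when each library was left out. The 8 came without Ch25h-/- Tau+ replicate 1 (9.42%), where Ch25h loss and library class coincide. A count of 4 came without Ch25h+/+ Tau+ replicate 2 (7.01%), and 1 without replicate 1 of that group (1.49%). For the mean tau effect it was 1 (Cldn11) with no filter (0.938%). It stayed at 0 under each alternative run for tau in Ch25h-/-, Ch25h loss in Tau- and the interaction, where the share of all genes called ran over the alternatives from 0.0298% to 0.0824%, 0% to 7.83% and 0% to 0.31%.

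The median log2 fold change moved by more than the spread between libraries in 4 cases. With replicates 1 and 2 alone standing for Ch25h+/+ Tau+ it was -0.024 for tau in Ch25h+/+, 0.10 for Ch25h loss in Tau+ and 0.26 for the interaction. With the library class as a covariate, whose effect rests on Ch25h-/- Tau+ replicate 1, it was 0.0784 for Ch25h loss in Tau-. The estimate of Trf for Ch25h loss in Tau- reversed to -0.41 with that covariate, and that of Olig2 for the interaction reversed to 0.0165 with replicates 1 and 2 alone. The cause was not tested. Group means of CPM on total counts moved by less than 1 SD in all 124 cases. A fit of only the groups compared was not run for the interaction and the mean tau effect, which use all 4. No paired analysis was possible because the labels carry no replicate numbers. The lowest count of any of the 31 genes in a library was 50, for Nkx2-2.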
